A study of Homo sapiens with 6 samples.

Results

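The comparison described here sets macrophage-like cells stimulated with IL-32 against unstimulated cells, across 298 human peptides printed on a phosphorylation array. It holds 4 of the 6 arrays of the series, chosen by their titles: 2 arrays of IL-32 and 2 of unstimulated cells, with 1 array of each in every numbered biological replicate, called an experiment here. The cells of all groups were THP-1, an established human monocytic leukaemia line, made adherent with the phorbol ester PMA for 24 h and then rested in fresh medium for 24 h. IL-32 cells received recombinant human IL-32g, the gamma isoform, at 20 ng/ml for 15 min, and unstimulated cells received no cytokine. The remaining 2 arrays, from cells given IL-17A/F, entered the normalization between arrays and the estimate of the spread, and no comparison. As a model, the cells are a single cancer line that had been exposed to PMA, itself an activator of protein kinase C, in every group. The study asked which kinase activities the cytokine altered.

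Each peptide copies a stretch around a known phosphorylation site, and kinases in the cell lysate act on it after lysis. A fluorescent phosphoprotein stain then reads the phosphate on the peptide, so a value says how strongly a lysate phosphorylated that peptide and not how much of the native protein was phosphorylated in the cell. IL-32 is a cytokine of inflamed tissue, found in the rheumatoid joint among other places, and it is known for making macrophages release TNF through NF-κB and MAP kinase signalling. In the NF-κB pathway, the IκB kinases mark inhibitory IκB proteins for destruction, which frees dimers that contain p65. In the MAP kinase pathways, relays of kinases end in ERK, JNK and p38, which modify transcription factors and stress proteins. Peptide sequences were not used here, so peptides are identified by the protein, UniProt accession and residue that the array lists.

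The stain left most peptides only modestly brighter than their surroundings. The median ratio of foreground to local background over the 900 spots was 1.27 and 1.26 on the IL-32 arrays, against 1.32 and 1.34 on the unstimulated arrays. Of the 298 peptides, 170 (57.0%) had all 12 spots of the 4 arrays above their own local background, 62 (20.8%) had none, and 66 lay between. The share with all 12 spots above background was 78.1% among tyrosine peptides, 58.6% for threonine and 40% for serine. Before normalization, 287 of 298 peptides had a lower fitted value with IL-32, with a median log2 difference of -0.24 (-0.11 in experiment 1 and -0.35 in experiment 2). All differences below therefore place a peptide among the rest of its array. They are log2 differences after background correction and quantile normalization, with the standard error (SE) of limma's fit over 6 arrays. With 2 arrays per group the number of arrays limits the precision, and an exact permutation test could not go below p = 0.333.

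Over the 298 peptides, no difference between IL-32 and unstimulated lysates passed the test after adjustment. No peptide passed an adjusted p of 0.05 in limma's test (0 of 298, 0%, smallest adjusted p = 0.996), and 4 (1.34%) had an unadjusted p under 0.05: p65 S536, p105 S337 and Elk-1 T417 with a lower value after IL-32, and IKK-beta Y199 with a higher one. None of the 4 had an unadjusted p under 0.05 with foreground over background, and each lost it when a certain array was left out: p65 S536 without IL-32 in experiment 1, p105 S337 without unstimulated cells in experiment 2, IKK-beta Y199 without either array of experiment 2, and Elk-1 T417 without IL-32 in experiment 2 or unstimulated cells in experiment 1. At the criteria stated by the study, a fold over 1.5 with p under 0.06, the count was 0 (0%). HSP27 S78/82/3 was the single peptide (0.336%) with a fitted fold over 1.5. The criteria sat close to several peptides, since leaving out an array gave 2 peptides without IL-32 in experiment 1, 1 without IL-32 in experiment 2, 3 without unstimulated cells in experiment 1 and 1 without unstimulated cells in experiment 2.

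The arrays were set side by side by the replicate number in their titles, and the deviations of same-numbered IL-32 and unstimulated arrays correlated at 0.022, so that what these arrays share beyond the number is not shown. Taken so, the experiments disagreed in direction for most peptides. The difference had the same sign in both for 115 of 298 (38.6%), 60 of them (20.1%) above 0 and 55 (18.5%) below 0, and opposite signs for 183. Among the 170 peptides above background on all 12 spots, 64 had the same sign and 106 opposite signs. Across the 298 peptides, which share the same 4 arrays, Pearson's r between the differences of both experiments was -0.29 and Spearman's rho -0.33, given as a description. Differences were wider in experiment 2, with an SD over peptides of 0.23, against 0.15 in experiment 1. Cot S400, from the kinase also known as Tpl2, shows the disagreement at its widest among bright peptides, at -0.36 in experiment 1 and 0.68 in experiment 2. H-Ras-1 T35 differed the other way round, at 0.48 in experiment 1 and -0.35 in experiment 2; this pair was singled out after its values were seen. Spot spread alone did not separate the groups often. All 3 IL-32 spots lay outside the range of the 3 unstimulated spots for 17 peptides (5.7%) in experiment 1 and 41 (13.8%) in experiment 2. In both experiments and in the same direction this held for 1 peptide (0.336%), B-Raf T598, and in opposite directions for 4 (1.34%).

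**Figure D1:**
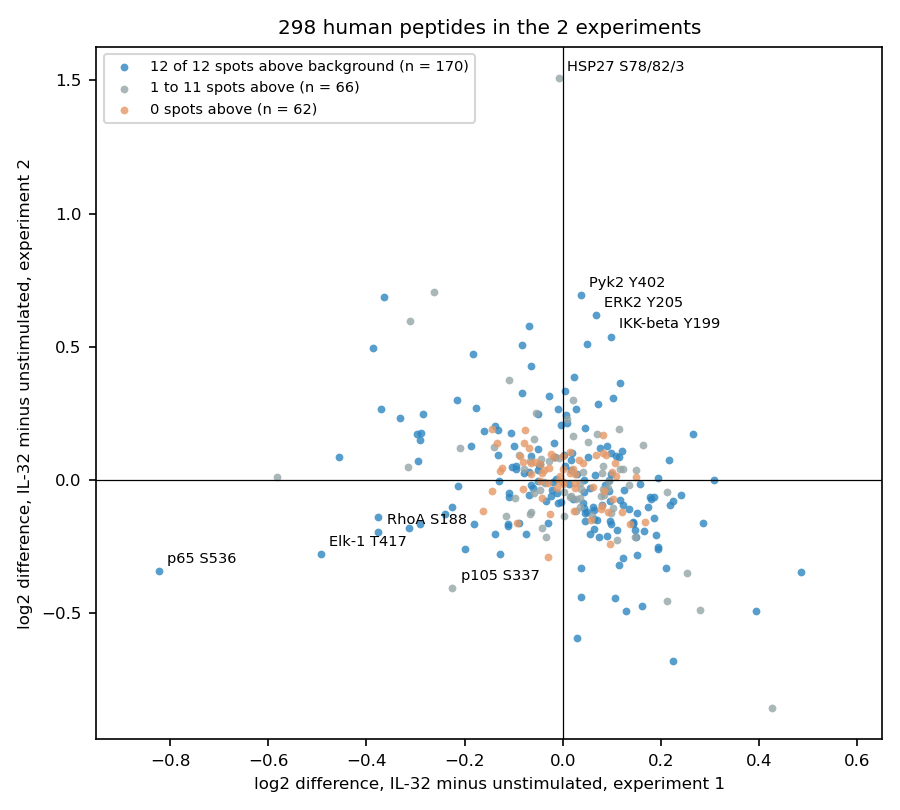
Log2 difference between IL-32 and unstimulated arrays in experiment 1 (horizontal axis) and experiment 2 (vertical axis) for 298 peptides, coloured by how many of 12 spots exceeded their local background. The 115 peptides with the same sign in both experiments lie at the upper right and lower left, p65 S536 lies farthest to the left, and HSP27 S78/82/3 stands at the top near 0 in experiment 1.

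The NF-κB pathway held 3 of the 4 peptides with an unadjusted p under 0.05, pointing in different directions. That is 3 of its 22 peptides, against 4 of 298 (1.34%) over all. The list was drawn up with earlier results of these data known, so the count is only a description. Of its 22 peptides from 13 genes, 12 were higher and 10 lower, with a median log2 difference of 0.0045 against -0.0017 over all 298, and 0 passed the adjusted test. The signs of both experiments matched for 7 of the 22, and 8 of the 22 had no spot above background.

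The peptide from p65 (RELA, Q04206) at S536, in the transactivation domain of the main activating NF-κB subunit, gave the lowest fitted value of all 298. Its authors' deposited processed values, which are background-subtracted and scaled within each array, were 1.19 and 1.35 on the IL-32 arrays, against 1.91 and 1.86 on the unstimulated arrays. Both IL-32 values lay below both unstimulated values, as for 31 of 298 peptides (10.4%) in that direction. The fitted log2 difference was -0.58 ± 0.15 (95% interval -0.95 to -0.22), with -0.82 in experiment 1 and -0.34 in experiment 2. In experiment 1 its 3 IL-32 spots lay at 11.91 to 12.35 on the normalized log2 scale, against 12.76 to 13.12 for the unstimulated spots, and in experiment 2 the ranges 11.96 to 12.59 and 12.49 to 12.82 overlapped. The surroundings of these spots differed as well. Foreground intensity was 27428 and 36585 with IL-32, against 55934 and 52163 without, while local background was 15518 and 20655 with IL-32, against 28671 and 28398 without. As a ratio to that background the p65 signal was 1.80 and 1.78 with IL-32, against 1.96 and 1.84 in unstimulated cells. Both IL-32 ratios lay below both unstimulated ratios, as for 72 of 298 peptides (24.2%) in that direction. With the ratio in place of background subtraction, and quantile normalization kept, the log2 difference was 0.0088. The part of the local background in this result was not tested. The other p65 peptides did not share its value: S311 gave -0.17 ± 0.26 with opposite signs in the experiments, and S276, a site of protein kinase A and MSK1, had no spot above background.

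The peptide from p105 (NFKB1, P19838) at S337, in the Rel homology region of the precursor of p50, was close to background after IL-32. Its deposited values were 0.111 and 0.0926 with IL-32, against 0.511 and 0.766 in unstimulated cells, and its ratios to background were 1.07 and 1.06, against 1.26 and 1.36. On each IL-32 array 2 of its 3 spots exceeded background, against all 3 on each unstimulated array. The fitted difference was -0.32 ± 0.08, with -0.22 in experiment 1 and -0.41 in experiment 2. The size varied widely with the treatment of background: -0.87 with none subtracted, -2.62 in the deposited values, -6.14 with plain subtraction and -0.22 ± 0.10 with foreground over background. Local background around these spots was 14743 and 19355 with IL-32, against 29134 and 27430 without, a gap like that at p65 S536, and its part was not tested. Among deposited values restricted to the peptides above the floor on every array, a restriction chosen after the data were seen, its adjusted p in limma's test was 0.066.

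IKK-beta (IKBKB, O14920) is the kinase that phosphorylates IκB in inflammatory signalling, and Y199 lies in its kinase domain. The Y199 peptide had deposited values of 1.17 and 1.37 with IL-32, against 1.04 and 0.817 without, both higher than either unstimulated array, as for 14 of 298 peptides (4.7%). Its fitted difference was 0.32 ± 0.11, with 0.10 in experiment 1 and 0.54 in experiment 2. The Y199 difference was 0.05 ± 0.16 with the median spot and 0.05 ± 0.10 with foreground over background, and leaving out an array gave 0.20 to 0.43. As a ratio to background the arrays overlapped, at 1.96 and 1.64 with IL-32, against 1.82 and 2.01 without. The local background around it was 13881 and 25430 with IL-32, against 17778 and 17339 without, and its part was not tested. The neighbouring Y188 peptide of the same kinase gave -0.03 ± 0.16. IkB-beta T19/23, from an inhibitor that holds p65 in the cytoplasm, gave -0.28 ± 0.18, with 0.03 in experiment 1 and -0.59 in experiment 2. Its counterpart IkB-alpha S32/36, the site that IKK-beta marks for destruction, was bright on all 12 spots and gave 0.01 ± 0.10.

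**Figure D2:**
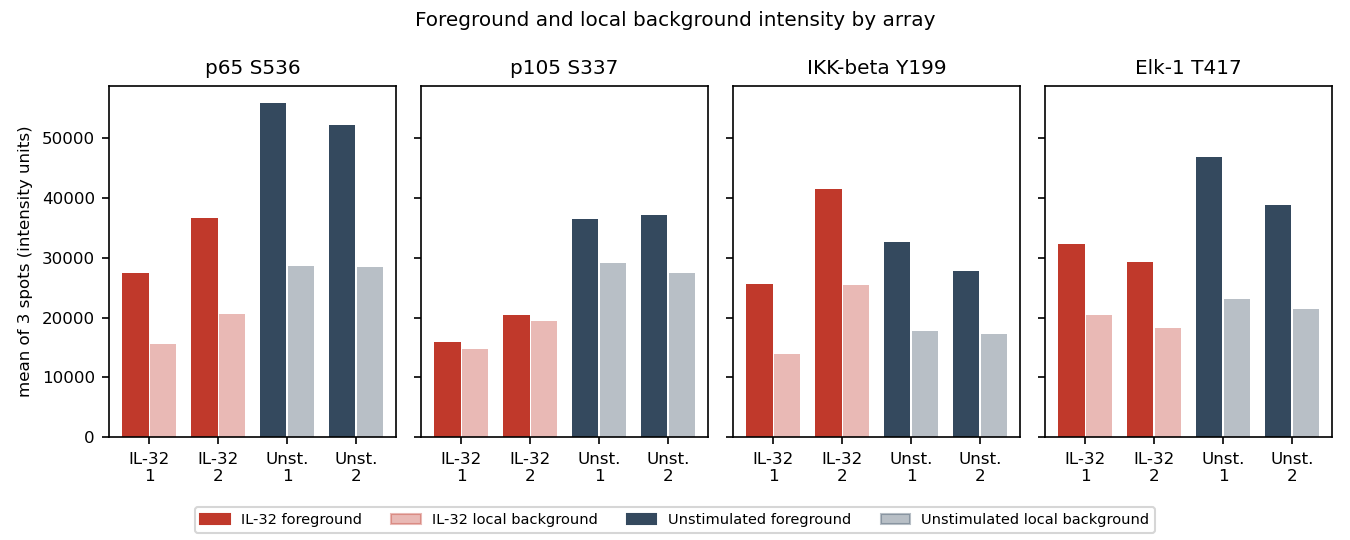
Mean foreground (dark bars) and mean local background (pale bars) of 3 spots, in intensity units, for the 4 peptides with an unadjusted p under 0.05, on each IL-32 array and each unstimulated array. For p65 S536, p105 S337 and Elk-1 T417 the local background is lower on both IL-32 arrays, as the foreground is.

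Toll-like and IL-1 receptor signalling proteins, which carry danger and microbial signals to NF-κB, gave small differences. Of 12 peptides from 5 genes, 5 were higher and 7 lower (median -0.019), 0 passed the test, and the experiments matched in sign for 2. TBK1 S172, the activation loop site of a kinase upstream of interferon genes, had deposited values of 1.52 and 1.55 with IL-32, against 1.33 and 1.34 without. Its fitted difference was 0.18 ± 0.13, with 0.07 in experiment 1 and 0.28 in experiment 2. The direction depended on the scale, since its ratio to background was 2.25 and 1.78 with IL-32, against 2.05 and 2.56 without. IRAK1 T387, from the activation loop of a kinase below these receptors, gave -0.13 ± 0.17 and Btk Y551 gave 0.07 ± 0.08, both with opposite signs in the experiments. The 3 IRF-3 peptides, from a transcription factor that TBK1 phosphorylates, ran from -0.04 ± 0.10 to 0.03 ± 0.13.

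Among p38, JNK and stress kinase proteins, 8 of 22 peptides were higher and 14 lower (median -0.017), and 0 passed the test. The value of HSP27 S78/82/3, a chaperone peptide phosphorylated through the p38 pathway, was decided by a single array. Its ratio to background was 0.73 and 2.27 with IL-32, against 0.70 and 1.06 without, so that both arrays of experiment 1 were below background. The fitted difference of 0.75 ± 0.55 held -0.01 in experiment 1 and 1.51 in experiment 2, and it was -0.16 without the IL-32 array of experiment 2. The 3 spots of that array ranged from 1.57 to 2.87 times their background. p38-alpha T180/2, the activating pair of residues of p38 itself, was above background on all 12 spots and gave -0.04 ± 0.07, with -0.06 and -0.02 in the experiments. ASK1 S83, an inhibitory site of a kinase that starts the stress cascade, gave -0.23 ± 0.21, with 0.22 in experiment 1 and -0.68 in experiment 2. A JNK1 peptide listed without a residue gave -0.15 ± 0.10. Jun S63, a JNK target, had no spot above background.

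The Ras, Raf and ERK relay had 11 of 18 peptides higher and 7 lower (median 0.024), and 0 passed the test. Elk-1 T417 (ELK1, P19419), from a transcription factor that ERK activates, had deposited values of 1.20 and 0.935 with IL-32, against 1.66 and 1.36 without. These did not overlap, as for 31 of 298 peptides (10.4%) in that direction. Its ratios to background were 1.79 and 1.61, against 2.07 and 1.80. The fitted difference was -0.39 ± 0.15 (95% interval -0.74 to -0.029), with -0.49 in experiment 1 and -0.28 in experiment 2, and leaving out an array gave -0.57 to -0.20. Its local background was 20381 and 18314 with IL-32, against 23089 and 21403 without, which is -0.18 and -0.22 as log2 differences. With foreground over background the difference was -0.13 ± 0.12, and the part of the background was not tested. Elk-1 S389, the second Elk-1 peptide, gave -0.13 ± 0.11, with -0.12 and -0.14. ERK2 Y205, from the last kinase of the relay, gave 0.34 ± 0.19 with 0.07 in experiment 1 and 0.62 in experiment 2, while ERK1 T202/4 gave 0.10 ± 0.09. ERK2 had deposited values of 0.726 and 1.43 with IL-32, against 0.706 and 0.791 without, so that the second IL-32 array stood apart.

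B-Raf T598 (BRAF, P15056), in the activation segment of the kinase above MEK, was named because its spots were separated in both experiments, which reflects the spread of spots on an array. Its ratios to background were 1.42 and 1.44 with IL-32, against 1.50 and 1.63 without, and its deposited values 0.490 and 0.709, against 0.736 and 1.01. The fitted difference was -0.14 ± 0.09, with -0.11 in experiment 1 and -0.17 in experiment 2, and leaving out an array gave -0.22 to -0.056. With foreground over background it was -0.04 ± 0.11. On the normalized log2 scale its spots lay at 11.60 to 11.68 with IL-32, against 11.69 to 11.81 without, in experiment 1, and at 11.67 to 11.81, against 11.84 to 11.99, in experiment 2. This was the only peptide whose spots were separated in both experiments, and with foreground over background the count of such peptides was 0.

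PI3K, Akt and translation proteins, which carry survival and growth signals, had 7 of 14 peptides higher and 7 lower (median 0.0043), with 0 past the test. BCAP Y281, from an adaptor that brings PI3K to receptors in macrophages and B cells, had deposited values of 0.942 and 0.918 with IL-32, against 0.835 and 0.416 without, and a fitted difference of 0.24 ± 0.11. As a ratio to background it was 1.68 and 1.42 with IL-32, against 1.67 and 1.40, so that experiments differed more than groups. PIK3R1 S608/7, from the regulatory subunit of PI3K, had opposite signs in the experiments, at -0.26 in experiment 1 and 0.70 in experiment 2.

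In the list of Src family, Syk and focal adhesion proteins, which relay signals from integrins and immune receptors, 8 of 14 peptides were higher and 6 lower (median 0.029), with 0 past the test. Pyk2 Y402, the autophosphorylation site of a calcium-sensitive relative of focal adhesion kinase, had deposited values of 1.91 and 1.71 with IL-32, against 1.59 and 1.11 without. Both IL-32 values were the higher ones, as for 14 of 298 peptides (4.7%) in that direction. The fitted difference of 0.37 ± 0.19 held 0.04 in experiment 1 and 0.69 in experiment 2. As a ratio to background the arrays overlapped, at 2.21 and 2.01 with IL-32, against 2.12 and 2.03 without. Cbl Y371, a regulatory site of a ubiquitin ligase that ends receptor signalling, gave -0.23 ± 0.10, with -0.29 and -0.17 in the experiments. Its ratio to background was among the highest of those named, at 2.40 and 2.17 with IL-32, against 2.21 and 2.28 without, and on that scale the direction was not kept. CD45 S999/02/03, from the phosphatase that opens Src family kinases, gave 0.20 ± 0.12, with ratios of 1.79 and 1.41, against 1.66 and 1.36. FAK Y397 gave -0.03 ± 0.14.

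Actin and microtubule regulators had 4 of 9 peptides higher and 5 lower (median -0.0061), with 0 past the test. WASP Y291, from an activator of actin branching in blood cells, gave 0.28 ± 0.14, with 0.05 in experiment 1 and 0.51 in experiment 2, and deposited values of 0.852 and 1.27 with IL-32, against 0.829 and 0.701. RhoA S188, a protein kinase A site of a small GTPase that builds stress fibres, gave -0.29 ± 0.32, with -0.38 and -0.20. Its deposited values of 1.30 and 1.98 with IL-32 and 1.55 and 2.54 without overlapped. STMN1 S15, from the microtubule destabiliser stathmin, gave 0.12 ± 0.09. Ezrin T566, which links actin to the membrane, gave -0.18 ± 0.17 and the GTPase RAC1 at S71 gave 0.10 ± 0.13.

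Receptor tyrosine kinases had 12 of 24 peptides higher and 12 lower (median -0.0031), although 19 of the 24 were above background on all 12 spots, and 0 passed the test. EphA1 Y781, from an ephrin receptor, gave 0.26 in experiment 1 and 0.17 in experiment 2, with a fitted difference of 0.22 ± 0.11 and deposited values of 1.04 and 0.994 with IL-32, against 0.755 and 0.878. Taking the median spot instead gave -0.024. FLT3 Y589/91, from a receptor of early blood cells, gave 0.20 ± 0.15, nearly all of it from experiment 2 at 0.39. EphA2 Y594 gave -0.16 ± 0.16 with opposite signs. The receptor for the macrophage growth factor CSF-1, listed as CSFR, gave -0.04 ± 0.14 at Y561 and 0.00 ± 0.13 at Y809.

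For JAK-STAT and cytokine receptor proteins, 12 of 26 peptides were higher and 14 lower (median -0.015), with 0 past the test. Of the 26, 6 were lower in both experiments, a share near the 18.5% over all peptides. STAT proteins carry interferon and interleukin signals to the nucleus. STAT4 gave -0.25 ± 0.15 at Y693 and -0.18 ± 0.14 at S721, and STAT2 Y690, its activation site, gave -0.14 ± 0.11. The local background around STAT4 Y693 was 13560 and 20854 with IL-32, against 32860 and 20917 without. With foreground over background, which was also quantile-normalized, STAT2 Y690 and STAT4 S721 had differences above 0 (0.0084 and 0.019). Before that normalization the mean ratio was lower with IL-32 for both. It was 1.27 against 1.35 for STAT2 Y690, and 1.56 against 1.64 for STAT4 S721. The single arrays overlapped for both. STAT2 Y690 had ratios of 1.244 and 1.294 with IL-32, against 1.243 and 1.464 without. STAT4 S721 had 1.73 and 1.40 with IL-32, against 1.57 and 1.71 without, and was higher with IL-32 in experiment 1. The part of the background was not tested. STAT3 Y705, the main activation site of STAT3, gave -0.05 ± 0.08 with opposite signs, and STAT3 S727 had no spot above background.

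Cytokine receptor chains in that list gave values in both directions. IL7R Y449 gave -0.26 ± 0.17, with -0.38 and -0.14, and the value was -0.023 without the IL-32 array of experiment 1 and -0.51 without that of experiment 2. Its ratios to background were 1.92 and 1.84 with IL-32, against 2.07 and 2.06 without, with no overlap, as for 72 of 298 peptides (24.2%) in that direction. IL2RB, the shared beta chain of the IL-2 and IL-15 receptors, gave 0.25 ± 0.16 at Y536 with opposite signs in the experiments and 0.17 ± 0.11 at Y364. IL-10R-A Y496, a STAT3 docking site of the IL-10 receptor, gave 0.11 ± 0.08, with 0.12 and 0.11, the most even pair among the named higher peptides. Its deposited values were 0.576 and 0.576 with IL-32, against 0.468 and 0.415, but its ratios of 1.43 and 1.23 overlapped with 1.36 and 1.45.

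**Figure D3:**
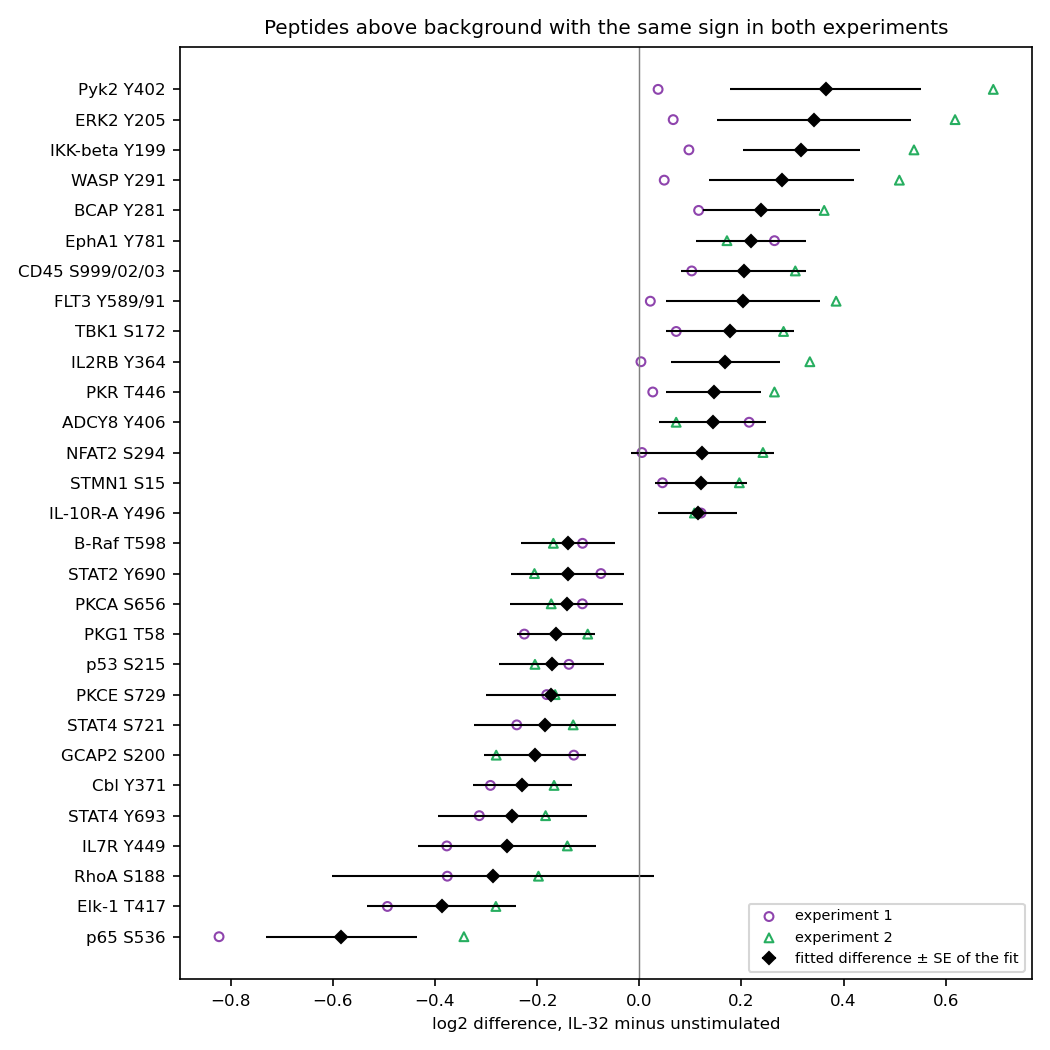
Log2 difference between IL-32 and unstimulated cells for the 15 highest and 14 of the 15 lowest peptides among those above background on all 12 spots with the same sign in both experiments. Diamonds with bars give the fitted value and its SE, circles experiment 1 and triangles experiment 2. Since the peptides were picked for their sign, the agreement of sign is not a result, and for the 4 highest (Pyk2 Y402, ERK2 Y205, IKK-beta Y199 and WASP Y291) the circle lies at 0.10 or below.

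**Figure D4:**
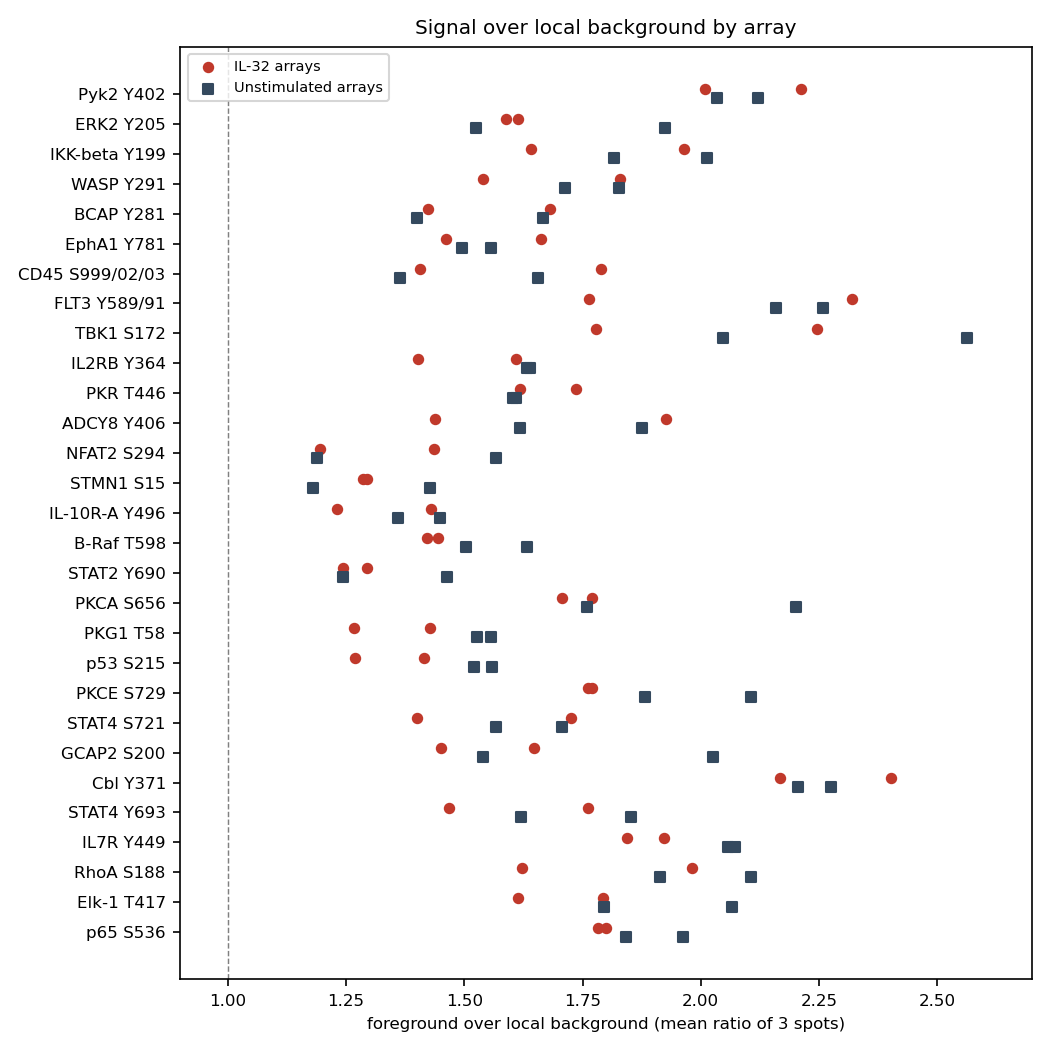
Foreground over local background, as the mean ratio of 3 spots, on the IL-32 arrays (red circles) and the unstimulated arrays (dark squares) for the same 29 peptides, with the dashed line at a ratio of 1. Red and dark points overlap for most of the upper 15 peptides, and p65 S536, at the bottom, shows ratios of 1.80 and 1.78 against 1.96 and 1.84.

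TNF receptor and apoptosis proteins had 10 of 20 peptides higher and 10 lower (median 0.0031), with 0 past the test. TNF-R1 S274, from the death receptor for TNF, gave 0.09 ± 0.08. The proteins that the study followed up, the death-associated kinase DAPK1 and the acetyltransferase p300, gave 4 peptides, and the choice of these proteins rests on these same samples. DAPK1 S308, an inhibitory autophosphorylation site, gave 0.05 ± 0.11, with ratios of 1.13 and 1.15 with IL-32, against 1.22 and 1.13. The p300 peptide at S1834, an Akt site, gave 0.15 ± 0.12, with 0.11 and 0.19 in the experiments and ratios of 1.21 and 1.10, against 1.22 and 0.91. DAPK1 S735 and p300 S893 were below background on all 12 spots. DAPK3 T180, a relative of DAPK1, gave 0.10 ± 0.14.

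Protein kinase C, phospholipase and calcium proteins had 10 of 19 peptides higher and 9 lower (median 0.0020), with 0 past the test. PKCE S729 and PKCA S656 lie in the tails of PKC isoforms. PKCE S729 gave -0.17 ± 0.13, with -0.18 and -0.16, and ratios of 1.76 and 1.77 with IL-32, against 1.88 and 2.11. PKCA S656 gave -0.14 ± 0.11, with -0.11 and -0.17. NFAT2 S294, from a calcium-regulated factor, gave 0.12 ± 0.14. The 3 NADPH oxidase peptides, from the enzyme complex that makes superoxide in phagocytes, were all higher by less than their error, at 0.06 ± 0.24 for p47phox S370, 0.12 ± 0.15 for p40phox T154 (which the array lists under the accession of p47phox) and 0.10 ± 0.13 for RAC1 S71. The signs of both experiments matched for 1 of the 3, RAC1 S71, whose value in experiment 2 was 0.0062.

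Transcription factors and co-activators had 16 of 30 peptides higher and 14 lower (median 0.0033), with 12 of the 30 below background on all spots and 0 past the test. BATF T48, from an AP-1 partner, gave 0.21 ± 0.15, with -0.08 and 0.51. In the cell cycle list, 6 of 10 were higher and 4 lower (median 0.020). There p53 S215 gave -0.17 ± 0.10, with -0.14 and -0.20, and ratios of 1.41 and 1.27 with IL-32, against 1.56 and 1.52. These ratios did not overlap, as for 72 of 298 peptides (24.2%) in that direction. CDK2 T14/5, an inhibitory site of a cell cycle kinase, gave 0.07 ± 0.07, and Cdc25A S88, from the phosphatase that releases it, 0.15 ± 0.16. The list of T and B lymphocyte proteins, drawn up for cell types other than macrophages, had 1 of 5 peptides higher and 4 lower (median -0.066). CD28 Y206/9 gave 0.14 ± 0.24 and BLNK Y72 -0.02 ± 0.10, each with opposite signs in the experiments. Signal on these peptides is stain on a printed sequence and does not show the presence of the protein.

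Some of the named peptides fall outside the lists. PKG1 T58, a site in the N-terminal regulatory part of cGMP-dependent kinase, gave -0.16 ± 0.08, with -0.22 and -0.10. Its ratios were 1.27 and 1.43 with IL-32, against 1.53 and 1.56, and its deposited values 0.407 and 0.600, against 0.803 and 0.777. Neither overlapped, as for 72 of 298 peptides (24.2%) in the ratios and 31 (10.4%) in the deposited values in that direction. In the deposited values the log2 difference of PKG1 T58 was -0.68, and PKG1 T58 met the criteria of the study there. PKR T446, the activation loop site of the kinase that senses double-stranded RNA, gave 0.15 ± 0.09. Its ratios of 1.62 and 1.74 with IL-32 exceeded the 1.61 and 1.60 without, as for 5 of 298 peptides (1.68%) in that direction. GCAP2 S200, from a retinal guanylate cyclase activator, gave -0.20 ± 0.10, and the adenylate cyclase ADCY8 at Y406 gave 0.14 ± 0.10.

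Of 12 proteins with at least 3 peptides, 1 had all its peptides on the same side, EphA2 with 3 lower values between -0.16 and -0.01, and none of those had the same sign in both experiments. The median over the peptides of a protein ran from -0.17 for p65 to 0.04 for iNOS, the inducible nitric oxide synthase. IRAK1 had 2 of 5 peptides higher and a median of -0.02, Akt1 1 of 4 and a median of -0.07, and the phosphatase MKP-1 1 of 3 and a median of -0.04. By residue, 51 tyrosine peptides were higher and 54 lower (median -0.0075), 65 serine peptides were higher and 65 lower (median 0.00082), and 26 threonine peptides were higher and 32 lower (median -0.0031).

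**Figure D5:**
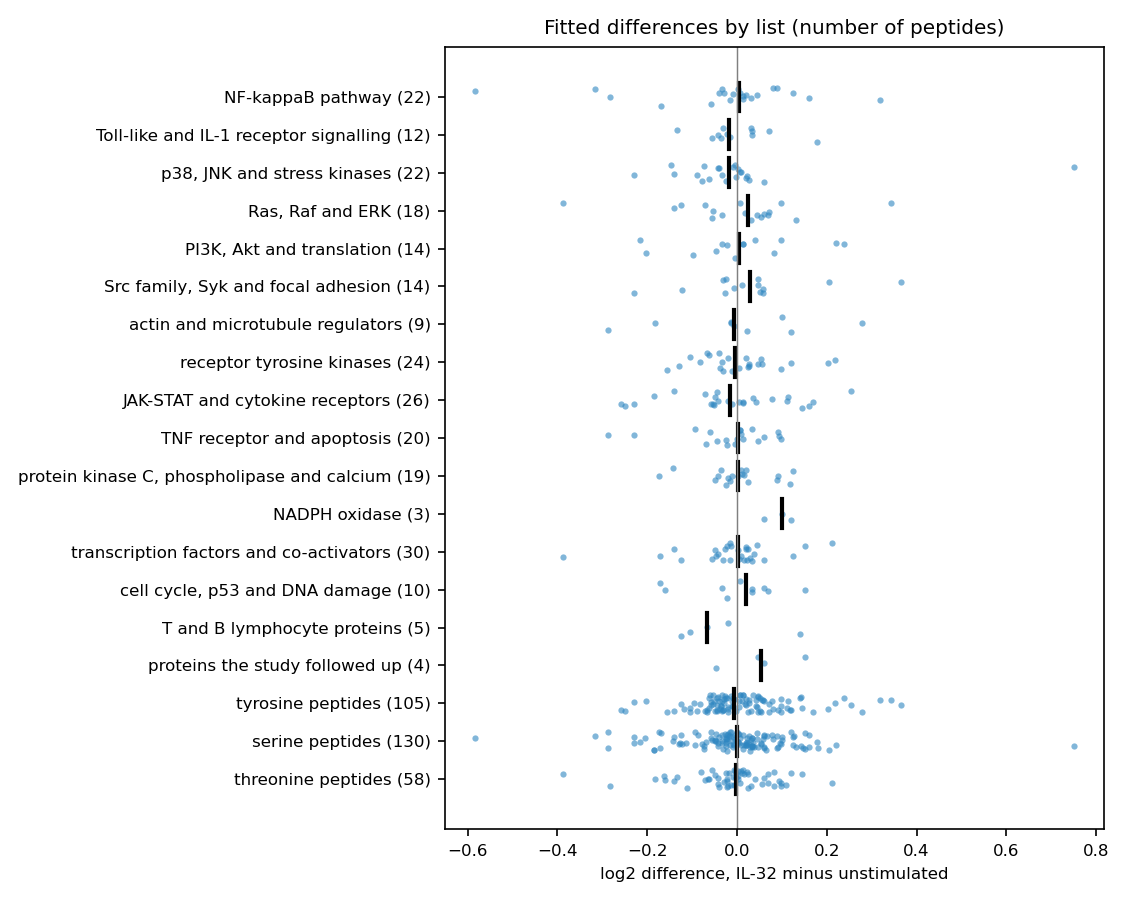
Fitted log2 differences between IL-32 and unstimulated cells for the peptides of each list, with the number of peptides in parentheses and a black bar at the median (vertical spread within a row carries no value). The medians lie between -0.066 for T and B lymphocyte proteins and 0.10 for the 3 NADPH oxidase peptides, and the outlying points are HSP27, p65 S536 and Elk-1 T417.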

How the data were processed

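Phosphorylation of printed peptides by THP-1 lysates was measured on 6 arrays, 1 per sample, and samples were grouped by title. Per the file headers, the deposited intensities are the mean foreground and mean local background of each spot at 532 nm, neither subtracted nor normalized, and no image software is named in the labels or headers. The authors' deposited value table holds a ratio: set against the array files, each value equals the mean foreground minus background of 3 spots divided by the 80th percentile of these means over the 300 peptides of the array, floored at 0.01, to within 2.4e-07.

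Background correction used limma's normexp (offset 50). After 2 non-human peptides were left out, log2 spot values were quantile-normalized, and each peptide took the mean of its 3 spots. The alternative called foreground over background replaced the normexp step with the log2 ratio of each spot and kept the quantile normalization. limma 3.58.1 (lmFit, eBayes, R 4.3.3) was fitted to the 6 arrays with no block term, and two-sided p-values were adjusted by Benjamini-Hochberg across 298 peptides. Differences are IL-32 minus unstimulated. The design text calls the replicates independent experiments, so the errors cover the spread between experiments and arrays. The procedure was tested on simulated data, with 5 draws per setting and a fixed noise level. Changes were placed only in peptides above background on all 12 spots. Every simulated spot lay above its local background, whereas 29.8% to 30.9% of the spots on each of the 4 arrays lay below theirs. The procedure made no call where nothing had been changed and recovered more of the 4-fold than of the 2-fold changes. Few of the 2-fold were recovered, so a count of 0 leaves room for changes of that size. How far these rates hold for the noise of these arrays, and with spots below background, was not tested. In the simulated data the procedure shrank large increases and called some unchanged peptides, most of them where many peptides changed 4-fold at once. Median local background at the 3 printing positions ran from 6978 to 28114.5 over the 4 arrays. The median SD of 3 spots was 0.12 to 0.20 per array on the log2 scale.

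All 298 peptides were assigned to 202 genes present in an NCBI RefSeq table of GRCh38.p14, 149 by symbol, 104 by synonym and 45 by hand. Members, lists and tests were chosen with earlier results of these data known. The rule for naming took 57 peptides, of which 4 are not reported here: those with an unadjusted p under 0.05 or a fold over 1.5, the 15 largest differences per direction among peptides with all spots above background and matching signs, the 3 largest per list with some array of each group above background, all DAPK1 and p300 peptides, and those with separated spots. Other peptides named beside them, from the same protein or pathway, were chosen after their values were seen.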

Additional observations from a re-analysis of the deposited data

How the results depend on the processing

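The count past an adjusted p of 0.05 in limma's test was 0 under every alternative run. At the criteria of the study, 0 peptides in the reported fit, the count was 10 with no background subtraction, 3 with plain subtraction, 3 with no normalization between arrays, 3 in the deposited values, 1 in the deposited values above their floor on every array (chosen after the data were seen), 1 with a normexp offset of 10, 1 with only the 4 arrays, and 1 to 3 leaving out an array. p65 S536 was the peptide counted with offset 10 and with only the 4 arrays. Separated spots in both experiments numbered 2 with no background subtraction, 0 with foreground over background, 3 with median scaling and 57 with no normalization. Matching signs numbered 215 with no normalization. With the replicate number as a block, 0 peptides passed and 8 had an unadjusted p under 0.05. Deviations of same-numbered arrays correlated at 0.022 for IL-32 with unstimulated, 0.39 for IL-32 with IL-17 and 0.18 for unstimulated with IL-17, so the fit kept no block, and differences per experiment rest on the numbers in the titles. Causes were not tested.

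Of 612 values for 51 named peptides with a fold under 12 alternatives, 59 changed sign, and 19 peptides kept theirs throughout. The log2 differences that changed sign were, with no normalization, ADCY8 Y406 -0.083, BATF T48 -0.051, Btk Y551 -0.14, CD28 Y206/9 -0.14, Cdc25A S88 -0.030, CDK2 T14/5 -0.17, DAPK1 S308 -0.18, DAPK3 T180 -0.087, EphA1 Y781 -0.0041, IL-10R-A Y496 -0.10, IL2RB Y364 -0.067, NFAT2 S294 -0.13, p300 S1834 -0.050, p40phox T154 -0.14, p47phox S370 -0.20, PKR T446 -0.10, RAC1 S71 -0.12, STMN1 S15 -0.078, TBK1 S172 -0.019. With foreground over background they were BLNK Y72 0.013, Cbl Y371 0.074, CDK2 T14/5 -0.015, FLT3 Y589/91 -0.033, IL-10R-A Y496 -0.0045, IL2RB Y364 -0.0087, JNK1 (spot label 165) 0.014, NFkB-p65 S536 0.0088, RAC1 S71 -0.055, STAT2 Y690 0.0084, STAT4 S721 0.019, TBK1 S172 -0.074. With the median of the spots they were CDK2 T14/5 -0.034, DAPK3 T180 -0.0021, EphA1 Y781 -0.024, IL-10R-A Y496 -0.011, STMN1 S15 -0.010, TBK1 S172 -0.12. With no background subtraction they were Btk Y551 -0.085, NFAT2 S294 -0.036, p47phox S370 -0.0035. Leaving out an array in turn moved 45 of 51 named peptides over 1.5 times or changed their sign. It gave, for the peptides whose sign changed, BATF T48 -0.0022 to 0.39, BLNK Y72 -0.084 to 0.056, Btk Y551 -0.00067 to 0.15, CD28 Y206/9 -0.16 to 0.41, DAPK1 S308 -0.026 to 0.12, DAPK3 T180 -0.11 to 0.31, EphA2 Y594 -0.34 to 0.046, Ezrin T566 -0.44 to 0.068, FLT3 Y589/91 -0.0067 to 0.42, HSP27 S78/82/3 -0.16 to 1.58, IRAK1 T387 -0.30 to 0.018, NFAT2 S294 -0.029 to 0.26, PIK3R1 S608/7 -0.26 to 0.70, RhoA S188 -0.72 to 0.12, p40phox T154 -0.076 to 0.30, p47phox S370 -0.30 to 0.40. The low signal over background, with median ratios of 1.26 to 1.34, and 2 arrays per group limit every value.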

Other observations

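The array carries 2 peptides of non-human proteins, which entered no comparison. The peptide from the bacterial flagellar hook protein had ratios to local background of 1.02 and 1.02 on the IL-32 arrays and 1.03 and 1.07 on the unstimulated arrays. The peptide from RuBisCO had ratios of 0.657 and 0.662 with IL-32 and 0.663 and 0.590 without, and no spot of it exceeded its background. The array holds the phospholipase PLCB1 S887 peptide under 2 spot labels. Its fitted differences were -0.02 ± 0.07 for spot label 235 and 0.01 ± 0.08 for spot label 236. Some human peptides lay at the level of the RuBisCO peptide, among them IKK-gamma S31, with ratios of 0.588 and 0.608 with IL-32 and 0.687 and 0.723 without.

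Foreground and local background varied together within each experiment. Across the 298 peptides, Pearson's r between their log2 differences was 0.82 in experiment 1 and 0.83 in experiment 2, a description over peptides that share the same arrays. Local background was lower on the IL-32 array for 269 of 298 peptides in experiment 1, with a median log2 difference of -0.38, and for 121 of 298 in experiment 2, with a median of 0.14. The fitted differences themselves had r = -0.02 with the background differences in experiment 1 and 0.22 in experiment 2.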
